A study of Homo sapiens with 4 samples.

Results

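The genes described here are 10 regulators of the passage from the G1 to the S phase of the cell cycle: the D-type cyclins CCND1 and CCND3, the E-type cyclins CCNE1 and CCNE2, the kinases CDK4 and CDK6, the inhibitors CDKN1B and CDKN2A, the pocket protein gene RB1, and the transcription factor gene MYC. They were chosen by name. All 10 were found among the 19869 genes with a usable symbol, and all 10 were among the 17735 genes that passed the filter on low values (a normalized count of at least 1 in at least 2 libraries).

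The transcripts of DU145, an established human prostate cancer cell line, were measured by RNA-seq in cells grown in DMEM with 10% FBS. Control cells carried pLKO, the lentiviral vector used to express short hairpin RNAs, and gave 2 libraries. Cells with TAZ knockdown gave the other 2 libraries. The series used independent TAZ hairpins without naming the one in each library, so a difference between the knockdown libraries may be one between hairpins. Separate cultures are not mentioned for libraries of the same group, and the p-values therefore reflect a library-to-library spread that may be technical.

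D-type cyclins bind CDK4 or CDK6 and phosphorylate the retinoblastoma protein, which releases E2F transcription factors. E-type cyclins, themselves E2F targets, then activate CDK2 and drive entry into S phase. The p16 protein of CDKN2A blocks CDK4 and CDK6, the p27 protein of CDKN1B blocks cyclin E-CDK2, and MYC raises transcription of several of these genes. DU145 cells are known to lack functional retinoblastoma protein, and cells of that kind typically carry abundant p16 transcripts. TAZ, the product of WWTR1 and a coactivator under Hippo control, acts through TEAD factors, and CCND1 and MYC have been described as targets of TAZ or its paralog YAP1 in other cells.

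The reads recovered from the table numbered 11687727 to 14814918 per library, and the 10 genes held between 229 and 17119 reads each in a library. The knockdown was seen in WWTR1, at 2508 and 3626 normalized counts in controls against 839 and 719 after knockdown. All 6 epithelial markers were present, with a summed count of 36076 and 50571 in controls against 33453 and 22750.3 in knockdown libraries. Of these 6, limma called 0, and 4 had an unadjusted p under 0.05, 2 higher and 2 lower, against 7.05% of all genes tested. KRT8, a simple epithelial keratin and the highest of them, had 18494 and 24944 counts in controls against 14618 and 8485 after knockdown. KRT18 also stood below both controls, at 9412 and 13485 against 8369 and 5318. EPCAM (520 and 661 against 709 and 1061) and CDH1 (820 and 1329 against 2296 and 1355) stood above both. The remaining genes of the list overlapped. Of markers of other cell types, the endothelial list summed to 19.5 and 32.2 in controls and 14.2 and 7.30 in knockdown libraries. The fibroblast list, with 4 of 6 genes analysed, summed to 105 and 54.1 in controls and to 171 and 157 in knockdown libraries. Of the leukocyte list, 4 of 6 genes were analysed and CD68, a lysosomal protein that epithelial cells also express, averaged 1193.5 counts, with a summed count of the list of 1022 to 1326 per library. PTPRC, the common leukocyte antigen, had 0 counts in 3 of the 4 libraries and under 1 in the other. The part of these markers in the results was not tested.

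None of the 10 genes passed the test between knockdown and control. limma on log2(normalized count + 1), with p-values adjusted by Benjamini-Hochberg over all genes, called 0 of the 10 at an adjusted p under 0.05, where 0.0113% of all genes tested were called. Their limma adjusted p-values lay between 0.714 and 0.994. At an unadjusted p under 0.05 the count was also 0 of 10 by limma, edgeR, DESeq2 and limma-voom. Of all genes it was 7.05% by limma, 7.14% by edgeR, 4.15% by DESeq2 and 7.24% by limma-voom. The DESeq2 share at this level is over 19869 genes, without the filter, and the others are over the 17735 that passed it. By edgeR, DESeq2 and limma-voom 0 of the 10 had an adjusted p under 0.05, where these tools called 0.0564%, 0.451% and 0.0113% of genes. The DESeq2 share of called genes is over the 14861 that it gave an adjusted p. The authors' deposited table called 0.537% of the 12671 genes that had an adjusted p there. It gave the 10 genes adjusted p-values of 0.879 to 0.999735, with CDKN1B the lowest.

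Read library by library, both knockdown libraries lay on one side of both controls for 4 of the 10 genes, above for CCNE1, CCNE2 and RB1 and below for CDKN1B. Over all genes tested this held for 37.4%, 18.4% above and 19% below, so 4 of 10 is near the background. Without control 1 the count was 8 of the 10, against 72.3% of all genes, and without control 2 it was 10, against 71.3%. Without knockdown 1 it was 5, against 69.1%, and without knockdown 2 it was 5, against 60.5%. With trends with the length and GC content of transcripts removed it was 6 of the 10, against 34.8% of the 14578 genes with a length. An exact two-sided permutation test of 2 libraries against 2 cannot give a p below 0.333. The fitted log2 difference was positive for 5 of the 10, against 49% of all genes tested, and negative for 5, with a median of 0.03, beside -0.0075 over all genes tested. Without control 2 the median was 0.24, and without knockdown 2 it was -0.0091. It was 0.11 with the length and GC trends removed. In bulk RNA, fewer cells of a cycle phase and less transcript per cell cannot be told apart.

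**Figure D1:**
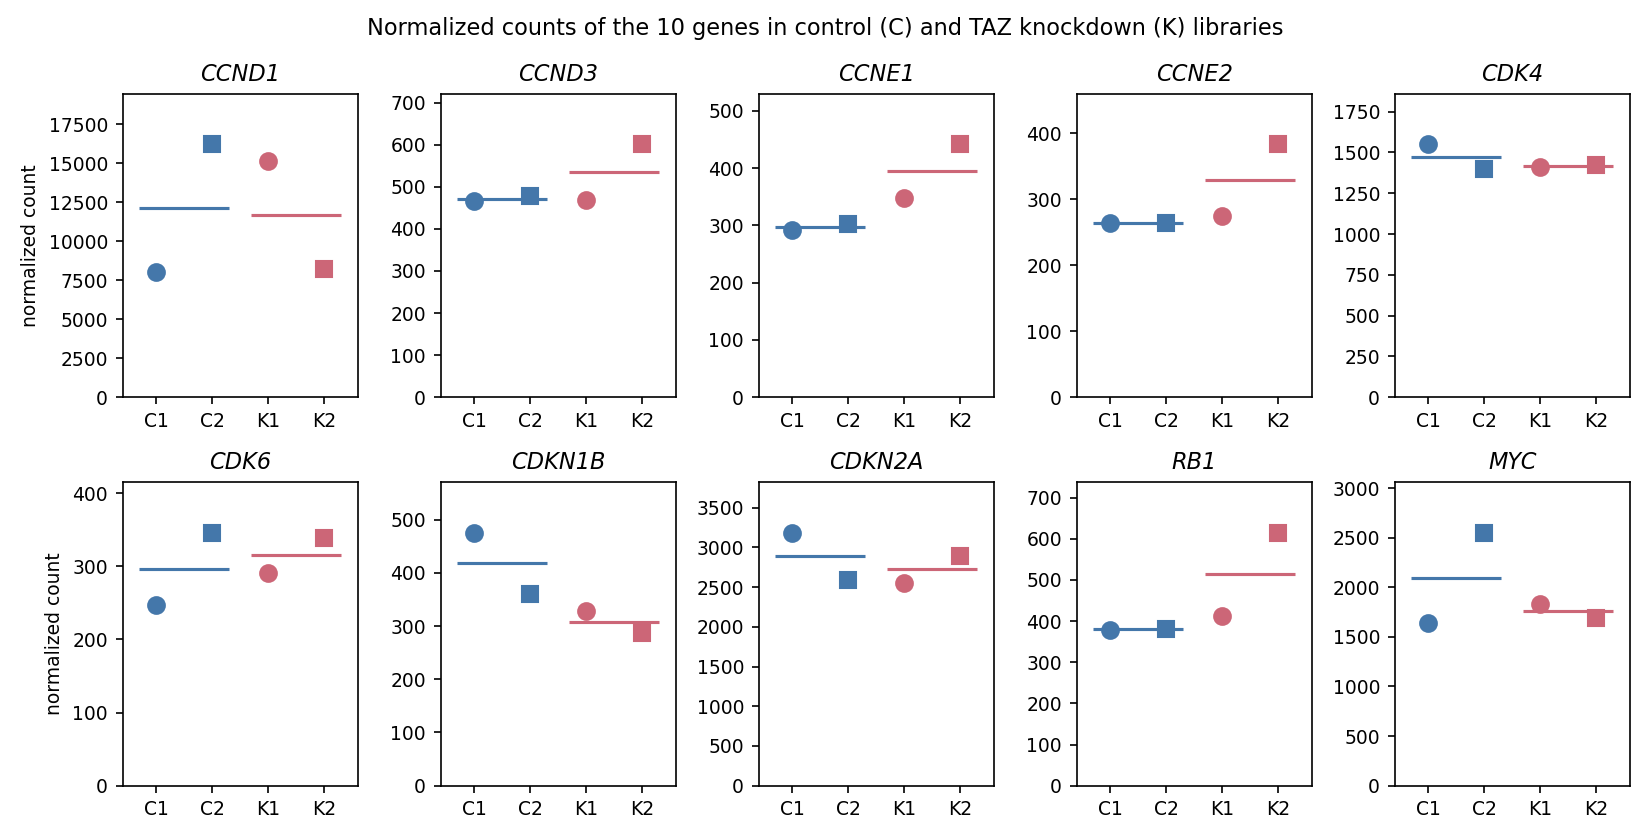
Normalized counts (y axis, from 0, own scale in each panel) of the 10 genes in control 1 and 2 (C1, C2, blue) and TAZ knockdown 1 and 2 (K1, K2, red), with the mean of each group as a line. CCND1 is at 16221 in control 2 and 15159 in knockdown 1 and below 8227 in the other libraries, and the controls of CCNE1, CCNE2 and RB1 nearly coincide while knockdown 2 stands highest.

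CCND1, which encodes cyclin D1, had the highest mean level per transcript length of the 10 and differed most between libraries of the same group. Its normalized count was 8039.7 in control 1 and 16221 in control 2, and 15159 in knockdown 1 and 8226.5 in knockdown 2. The high libraries were thus 1 control and 1 knockdown, and so were the low ones. The controls differed 2.02-fold and the knockdown libraries 1.84-fold. Of the 10234 genes averaging 100 counts or more, 98.6% had a smaller log2 gap between the controls and 98.0% a smaller one between the knockdown libraries. The group means were 12130.2 ± 5785 and 11693 ± 4902 (SD, n = 2 each). The fitted log2 difference was -0.03 ± 0.34 (SE), with a 95% interval of -0.77 to 0.71, the widest of the 10. Knockdown 1 minus control 1 was 0.91, and knockdown 2 minus control 2 was -0.98. Without control 2 the fitted difference was 0.47 and without control 1 it was -0.54. Without knockdown 1 it was -0.47 and without knockdown 2 it was 0.41, so its direction rested on the control and the knockdown library used.

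The genes whose pattern over the 4 libraries lay closest to that of CCND1, by Euclidean distance of centred log2 values among 8858 genes of at least median level, were HAS3, C1orf116 and SEMA7A. HAS3, a hyaluronan synthase, had 2628 and 5242 counts in controls against 4984 and 3048 after knockdown, at a distance of 0.160. SEMA7A, a membrane-anchored semaphorin, had 393 and 723 in controls against 664 and 417 after knockdown, at a distance of 0.178. Like CCND1, both were high in control 2 and knockdown 1 and low in control 1 and knockdown 2. That likeness follows from choosing them by this distance.

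CCND3, which encodes cyclin D3, was steadier. Its count was 467 and 477 in controls against 468 and 601 after knockdown, so knockdown 1 lay between the controls and knockdown 2 above both. The log2 difference was 0.17 ± 0.19 (SE; 95% interval -0.25 to 0.59), and it was 0.31 without the trend of each library with transcript length and GC content. Per kilobase of transcript, CCND1 made up 90.5% of the CCND1 and CCND3 counts in control 1 (exact binomial 95% interval 89.7 to 91.3), 95.0% in control 2 (94.5 to 95.4), 94.7% in knockdown 1 (94.3 to 95.2) and 88.4% in knockdown 2 (87.5 to 89.2). These intervals cover counting error only. The share followed CCND1, and the groups overlapped. CCND2, the remaining D-type cyclin, had at most 2.30 counts in a library.

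The promoter entries of RefSeq (GRCh38.p14) matched 7 of the 10 genes. The entry of RB1 starts 172724 bases inside the gene by GENCODE 29 and is left out of the motif counts. The starts of the other 6 lie at most 3703 bases inside the gene. Only the first entry of a gene was used, so any other start was not read. The entry of CDKN2A lies at the outermost start of the gene by GENCODE 29, and starts further inside were not read. The window of CCND3 begins inside an annotated exon. The start that RefSeq gives CCNE1 was preceded by the following 157 bases that lie before every annotated GENCODE 29 exon there (chr19:29811741-29811897, plus strand, 250 to 94 bases before the start). They are shown because CCNE1 had the larger fitted difference of the cyclins, and capitals mark the GC box, GGGCGG on either strand, which occurs 5 times.
CCNE1: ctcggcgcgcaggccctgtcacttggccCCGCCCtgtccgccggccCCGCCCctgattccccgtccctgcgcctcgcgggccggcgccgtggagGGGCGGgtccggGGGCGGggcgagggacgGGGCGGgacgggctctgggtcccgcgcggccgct
GC boxes were found in the 250 bases before the start of 5 of the 6 genes and of 42.6% of 35116 RefSeq promoters. The E2F consensus, searched as TTTCGCGC, TTTGGCGC, TTTCCCGC or TTTGCCGC, matched 0 of the 6 windows and 2.79% of all promoters. The TEAD core GGAATG matched 0 of the 6 and 11.9% of all. Both strands were read, and a window without these letters says nothing about binding elsewhere.

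Both E-type cyclins were higher in each knockdown library than in each control, by amounts that did not pass the test. CCNE1, cyclin E1, had 291 and 303 counts in controls against 347 and 442 after knockdown, 133% of control. The log2 difference was 0.40 ± 0.20 (SE; 95% interval -0.05 to 0.85; limma adjusted p = 0.716). CCNE2, cyclin E2, had 263.4 in both controls and 275 and 384 in the knockdown libraries, 125% of control. Knockdown 1 stood close to the controls and knockdown 2 well above them. The log2 difference was 0.30 ± 0.22 (SE; 95% interval -0.19 to 0.79; limma adjusted p = 0.800). Knockdown 1 exceeded the controls by 0.06 on the log2 scale and knockdown 2 by 0.54, and without knockdown 2 the fitted difference was 0.06. The gap between the controls of CCNE2 was among the smallest, as 0.0586% of genes with a mean of at least 100 had a smaller one.

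Between the E-type cyclins the balance was nearly the same in the 4 libraries. Per kilobase, CCNE1 made up 64.3% of their counts in control 1 (exact binomial 95% interval 60.5 to 68.0), 65.2% in control 2 (61.0 to 69.2), 67.3% in knockdown 1 (63.9 to 70.6) and 65.3% in knockdown 2 (62.0 to 68.4). All 4 intervals overlapped.

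RB1, the pocket protein gene, showed the same order of libraries. It had 379 and 382 counts in controls against 413 and 615 after knockdown, 135% of control. Knockdown 1 exceeded the controls by 0.12 and 0.11 on the log2 scale and knockdown 2 by 0.70 and 0.69. The fitted difference was 0.40 ± 0.22 (SE; 95% interval -0.08 to 0.88; limma adjusted p = 0.737), and it was 0.12 without knockdown 2. It was 0.26 once each library's trend with the length and GC content of transcripts was removed.

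The difference between the knockdown libraries was itself tested over all genes, in a limma fit with 3 groups whose spread comes from the controls alone. Of all genes, 0% passed, and 2.95% had an unadjusted p under 0.05. None of the 10 genes passed, and 0 had an unadjusted p under 0.05. RB1 was 0.57 ± 0.27 higher in knockdown 2 than in knockdown 1 on the log2 scale, CCNE2 0.48 ± 0.29 and CCNE1 0.35 ± 0.28 (SE each), and CCND1 was -0.88 ± 0.48.

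**Figure D2:**
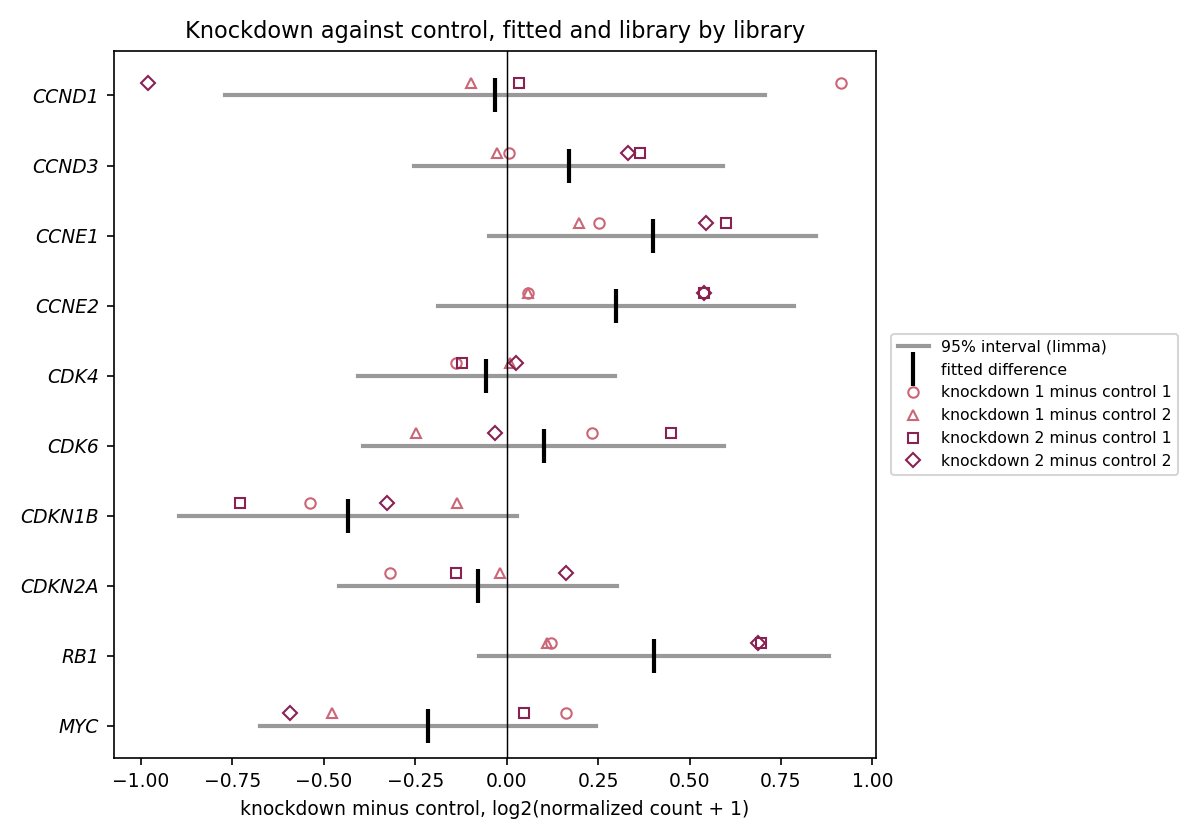
Differences between knockdown and control on the log2(normalized count + 1) scale (x axis) for the 10 genes (y axis). The black bar is the fitted difference, the grey line its limma 95% interval, and the open symbols are the 4 differences between single libraries; all 10 intervals include 0, and the 4 symbols lie on one side of 0 for CCNE1, CCNE2, RB1 and CDKN1B.

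CDK4 and CDK6 encode the kinases that the D-type cyclins activate. CDK4 had 1551 and 1399 counts in controls against 1409 and 1425 after knockdown. Both knockdown libraries lay between the controls, and the log2 difference was -0.06 ± 0.16 (SE), with a 95% interval of -0.41 to 0.30. CDK6 had 248 and 346 counts in controls against 291 and 339 after knockdown, which again lay between the controls. Its log2 difference was 0.10 ± 0.22 (SE; 95% interval -0.39 to 0.60). Per kilobase, CDK4 made up 97.2% of the counts of both kinases in control 1 (exact binomial 95% interval 96.9 to 97.6), 95.8% in control 2 (95.2 to 96.3), 96.4% in knockdown 1 (96.0 to 96.8) and 95.9% in knockdown 2 (95.4 to 96.4). CDK4 was thus the main transcript of the pair in every library. Without the length and GC trend the signs turned, to 0.060 for CDK4 and -0.22 for CDK6. The sign of CDK4 also turned without control 1 (0.019), and that of CDK6 without control 1 (-0.14) or knockdown 2 (-0.0075).

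CDKN1B encodes p27, the inhibitor of cyclin E-CDK2, and was lower in each knockdown library than in each control. Its count was 476 and 360.02 in controls against 328 and 287 after knockdown, 73.5% of control. The groups did not overlap, but the gap between the controls, 0.40 on the log2 scale, was about as large as the fitted difference of -0.43 ± 0.21 (SE; 95% interval -0.89 to 0.03; limma adjusted p = 0.714). Without control 1 the difference was -0.23 and without control 2 it was -0.63. The difference varied with its comparison, from -0.73 for knockdown 2 minus control 1 to -0.14 for knockdown 1 minus control 2.

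CDKN2A, which encodes p16 and, from another reading frame, ARF, had the second highest mean level per transcript length. It had 3185 and 2588 counts in controls against 2554 and 2894 after knockdown, which overlapped. The log2 difference was -0.08 ± 0.17 (SE; 95% interval -0.46 to 0.30). It was 0.071 without control 1, 0.012 without knockdown 1, and 0.15 without the length and GC trend. The row joins the reads of both products, which cannot be separated.

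Scaled by transcript length, the 10 genes formed 4 groups. CCND1 (1867 to 3766 normalized counts per kilobase over the 4 libraries) and CDKN2A (1990.5 to 2483) were highest and overlapped each other. MYC (692 to 1078) and CDK4 (674 to 747) followed, and also overlapped. CCND3 (195 to 251), CCNE1 (143 to 216), CDKN1B (108 to 179), RB1 (79.2 to 128) and CCNE2 (79.1 to 115) formed a run in which each gene overlapped the next. CDK6 (21.3 to 29.8) lay below all others in every library. Length is that of the longest coding transcript in GENCODE 29, and a shorter form in use would raise a gene's level.

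**Figure D3:**
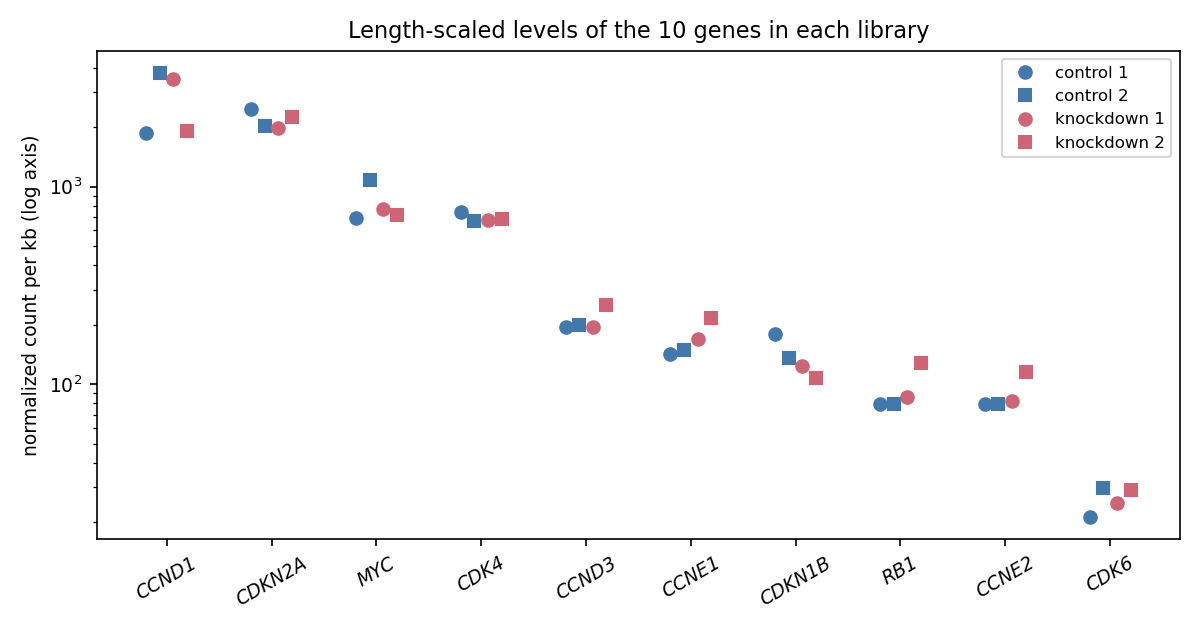
Normalized count per kilobase of transcript (y axis, log scale) of the 10 genes, ordered by mean, in the controls (blue) and knockdown libraries (red). CCND1 and CDKN2A lie at or above 1867 in every library and CDK6 at or below 29.8.

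MYC had 1636 and 2551 counts in controls against 1830.3 and 1691 after knockdown. Control 2 stood above the other 3 libraries, and both knockdown libraries lay between the controls. The controls differed 1.56-fold, a larger log2 gap than in 92.8% of genes with a mean of at least 100, and the knockdown libraries 1.08-fold. The fitted log2 difference was -0.22 ± 0.21 (SE; 95% interval -0.68 to 0.24; limma adjusted p = 0.860). It was -0.54 without control 1, 0.10 without control 2, and -0.11 without the length and GC trend. The closest patterns by the same distance were those of KRT19, a simple epithelial keratin, ASNSD1, and NDUFAF4, an assembly factor of respiratory complex I, at distances of 0.0557, 0.0608 and 0.0619. KRT19 had 6264 and 9725 counts in controls against 6909 and 6162 after knockdown.

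CDK4 is a known MYC target and was the only 1 of these 6 genes whose RefSeq window held the E-box CACGTG, the core motif bound by MYC and MAX, which 6.34% of all promoters hold. It occurred 3 times in the 250 bases before the RefSeq start. The sites are printed on the minus strand with 12 bases before each motif, and the first and second stretches overlap. Exons of other annotated transcripts reach into this window.
CDK4, chr12:57752509-57752538: atgtcaagcggtCACGTGtgatagcaacag
CDK4, chr12:57752489-57752518: atagcaacagatCACGTGgctgccatcgcc
CDK4, chr12:57752394-57752423: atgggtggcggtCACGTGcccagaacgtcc
Control 2 was the highest library for MYC, at 2551 counts, and the lowest for CDK4, at 1399. For CDK4 the knockdown libraries lay close to that value, at 1409 and 1425. A relation between the levels of both genes was not tested.

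Of 39 other genes of the G1 machinery, limma called 0, and 2 had an unadjusted p under 0.05, both higher, against 7.05% of all genes tested. edgeR and limma-voom had 2 each and DESeq2 1 at that level, and none of these tools called any. The median log2 difference was -0.02. In the mean, 18 genes were higher and 21 lower, where 9053 of the 17735 genes tested were lower. Groups did not overlap for 28.2%, below the 37.4% of all genes. The genes with the smallest p were CDKN1A, RBL2 and CDKN2C. CDKN1A, the p21 inhibitor of cyclin-CDK2 complexes, had 1028 and 1571 counts in controls against 1685 and 2219 after knockdown (log2 difference 0.61 ± 0.22, SE; limma adjusted p = 0.651). RBL2, which encodes the pocket protein p130, had 589 and 446 in controls against 605 and 850.5 after knockdown (0.48 ± 0.22, SE; limma adjusted p = 0.707). CDKN2C, the INK4 inhibitor p18, had 468 and 389.9 in controls against 366 and 266 after knockdown (-0.45 ± 0.22, SE; limma adjusted p = 0.714). SKP1, a subunit of the SCF ubiquitin ligase and the gene of the list with the highest mean count, had 2810 ± 198 and 2788 ± 8.49 (SD, n = 2 each).

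None of the 7 CDK inhibitors passed the test. CDKN1A stood above both controls in both knockdown libraries. CDKN1B, CDKN1C, CDKN2C and CDKN2D stood below both, and CDKN2A and CDKN2B overlapped. Of all genes tested, 18.4% stood above both controls and 19% below both. CDKN2D, the INK4 inhibitor p19, had 65.9 and 63.3 counts in controls against 42.5 and 57.3 after knockdown. CDKN1C, the p57 inhibitor, was scarce, at 14.8 and 12.7 in controls against 12.4 and 12.5 after knockdown. Its knockdown libraries lay below control 2 by less than the value of a single read there, 1.15. CDKN2B, the INK4 inhibitor p15, had 169.8 and 207 counts in controls against 197 and 192 after knockdown. SKP2, the ligase subunit that marks p27 for destruction, had 916.5 and 888 in controls against 985 and 768 after knockdown. FBXW7, the ligase subunit that targets cyclin E and MYC proteins, had 81.6 and 100.1 in controls against 69.1 and 84.4 after knockdown. CDK2, the partner of E-type cyclins, had 1003 and 697 in controls against 746 and 955 after knockdown, and so overlapped.

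Genes that E2F factors are known to activate had a median log2 difference of -0.05 over 41 genes, with 27 lower and 14 higher in the mean. Over all genes tested, 9053 of 17735 were lower. limma called 0, and 1, MCM2, had an unadjusted p under 0.05, against 7.05% of all genes tested. At that level limma-voom had 1, against 7.24% of all genes tested, and edgeR and DESeq2 had 0. Groups did not overlap for 34.1% of them, against 37.4% of all genes tested. MCM2, a subunit of the replicative helicase, had 4146 and 4122 counts in controls against 3339 and 3138 after knockdown (log2 difference -0.35 ± 0.16, SE; limma adjusted p = 0.701). PRIM1, the small primase subunit, had 502 and 462 in controls against 366 and 373 after knockdown. GINS3, a helicase cofactor, had 257 and 261 in controls against 296 and 424 after knockdown. MCM3, the gene of the list with the highest mean count, had 6077 and 5411 in controls against 5379 and 4876 after knockdown. The direction of the list rested on the control used, as its median was 0.06 without control 1 and -0.17 without control 2. It was 0.0026 without knockdown 1 and -0.11 without knockdown 2. E2F1, the activator itself, had 809.8 and 725 counts in controls against 638 and 890.1 after knockdown.

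**Figure D4:**
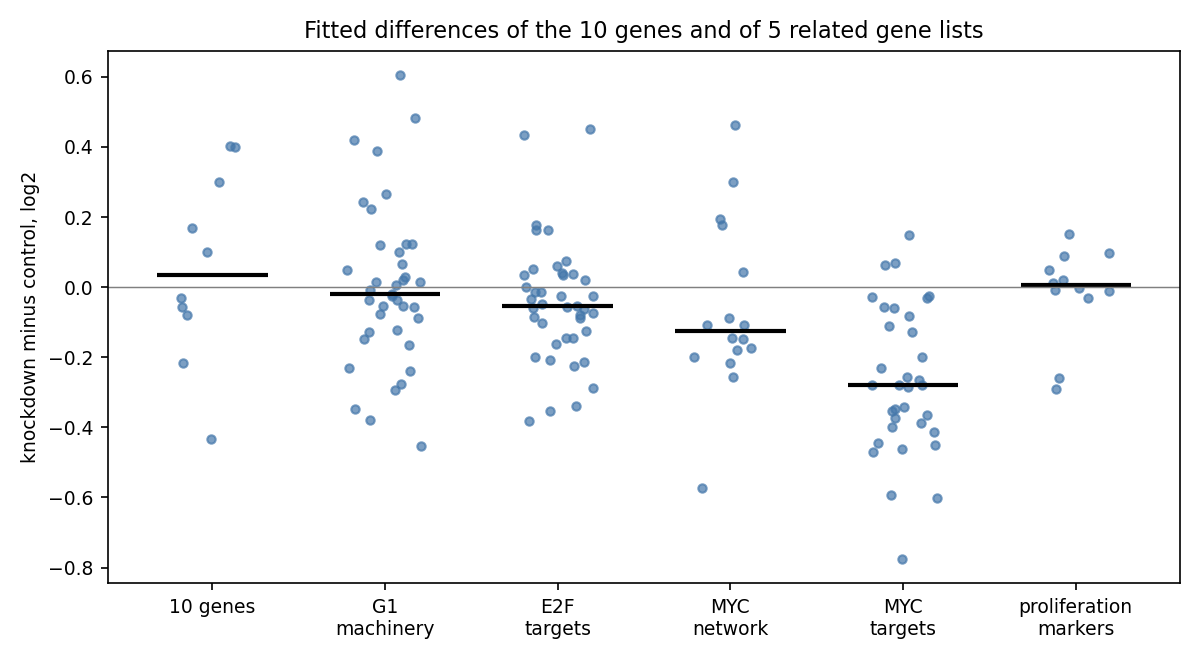
Fitted differences between knockdown and control (y axis, log2) of the 10 genes and of the genes of 5 related lists (x axis), 1 point a gene, with the list median as a black line. The medians lie between -0.28 for MYC targets and 0.03 for the 10 genes.

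The partners and antagonists of MYC had a median of -0.13 over 16 genes tested, with 0 called by limma, edgeR, DESeq2 and limma-voom. At an unadjusted p under 0.05 limma-voom had 1 and the other tools 0, where limma-voom had 7.24% and limma 7.05% of all genes tested. MAX, the obligate partner of MYC, had 575 and 576 counts in controls against 499 and 572 after knockdown. MGA, a MAX-binding repressor and the gene of the list with the smallest p, had 921 and 1441 in controls against 1677 and 1503 after knockdown (log2 difference 0.46 ± 0.21, SE; limma adjusted p = 0.711). Of the 16 genes, 11 were lower and 5 higher in the mean, where 9053 of the 17735 genes tested were lower. Groups did not overlap for 43.8% of the list, against 37.4% of all genes tested. RUVBL2, next by p, had 2011 and 2043 in controls against 1851 and 1553 after knockdown (log2 difference -0.26 ± 0.16, SE). MYCBP2 followed, with 934 and 1327 against 1446 and 1302. TRRAP, the gene of the list with the highest mean count, had 1907 and 2023 against 2408 and 2053. The median of the list was 0.0036 without knockdown 1, and -0.16 to -0.10 without any other library. It was -0.045 with the length and GC trends removed.

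Genes that MYC is known to activate were lower in the mean for 31 of 34 genes tested, CDK4 among them, with a median log2 difference of -0.28. Over all genes tested, 9053 of 17735 were lower in the mean. limma called 0, and 4 had an unadjusted p under 0.05, all lower, against 7.05% of all genes tested. At that level edgeR and DESeq2 had 5 each and limma-voom 6, and each tool called 0. Groups did not overlap for 38.2%, against 37.4% of all genes. Of these genes 13 of 13 were lower, where 19% of all genes lay below both controls and 18.4% above. SHMT2, the mitochondrial serine hydroxymethyltransferase, had 4132 and 4615 counts in controls against 3279.9 and 3027 after knockdown (-0.47 ± 0.16, SE; limma adjusted p = 0.627). TERT, next by p, had 154 and 191 in controls against 124 and 80.3 after knockdown (log2 difference -0.78 ± 0.28, SE). SRM, spermidine synthase, had 2899 and 4084 in controls against 2872 and 1808 after knockdown. LDHA, lactate dehydrogenase A and the gene of the list with the highest mean count, had 24797 and 24496.5 in controls against 20305 and 16888 after knockdown. By single libraries the median difference was 0.08 for knockdown 1 minus control 1, -0.31 for knockdown 1 minus control 2, -0.30 for knockdown 2 minus control 1 and -0.60 for knockdown 2 minus control 2. Control 2 exceeded control 1 by a median of 0.35 over these genes and of 0.48 over the epithelial markers. MYC itself was 0.64 higher in control 2, and CDK4, a gene of the list, was at -0.15. A link between the level of MYC and this list was not tested. Without control 2 the median of the MYC targets was -0.11 and without knockdown 2 it was -0.07. It was -0.45 without control 1 and -0.46 without knockdown 1.

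Markers of cycling cells had a median log2 difference of 0.0052 over 12 genes, with 6 higher and 6 lower in the mean. limma called 0, with 0 at an unadjusted p under 0.05 by limma, edgeR, DESeq2 and limma-voom. Of all genes tested, 49% were higher in the mean and 7.05% had an unadjusted p under 0.05 by limma. MKI67, the proliferation antigen Ki-67, had 8609 and 7378 counts in controls against 8395 and 9328 after knockdown. PLK1, a mitotic kinase, had 1790.3 and 1555 in controls against 1526 and 1217 after knockdown. AURKB had 1171 and 1056 in controls against 952 and 908 after knockdown. The list was lower in control 2 than in control 1, by a median of 0.37 on the log2 scale, and its median turned from 0.21 without control 1 to -0.19 without control 2.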

How the data were processed

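RNA-seq libraries of DU145 cells, 2 control and 2 with TAZ knockdown, were compared. Per the file headers, the deposited table gives each library's signal per gene as normalized counts. Per the file headers it also holds a mean signal, the authors' log2 fold change and its error, the Wald score, and raw and adjusted p-values. The submitters' processing notes name STAR, DESeq2 and hg19; the sources used here do not name the read counter. Per the labels' protocols the library kit kept no strand information. Exons of CCND1, CCND3, CCNE2, CDK4, CDK6 and CDKN2A overlap opposite-strand genes (LTO1, AL513008.1, INTS8 and AC087752.4, TSPAN31, AC002454.1 and CDKN2B-AS1 in GENCODE 29), and reads of such pairs cannot be told apart.

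In each library 100% of values came out as whole multiples of the column's smallest (within 0.001 reads), so reads were recovered. Of 19897 rows, 26 with symbols turned into dates, which held 0.153 to 0.191% of reads, and those of repeated symbols were left out. The plan named limma, with edgeR instead for a table of raw counts, which the file did not hold. The main test was thus limma (version 3.58.1, R 4.3.3, intensity trend, no replicate block) on log2(value + 1), at values of at least 1 in 2 libraries. Such fold changes understate those of low genes. Count tests on recovered reads used edgeR 4.0.16 (quasi-likelihood), DESeq2 1.42.0 (Wald) and limma-voom. The fits were tested on simulated data. Other settings were the pseudocount, filter, scaling, a replicate block, leaving out each library, and removal of trends with transcript length and GC content (splines, 4 degrees of freedom), for 14578 genes with a length. The members, lists and tests were chosen with earlier results of these data known. Beside the 10 genes and WWTR1, named genes were the 3 of each list with the smallest p and the one with the highest mean. The 3 closest in pattern to CCND1 and to MYC were also named. CCND2, CDK2, CDKN1C, CDKN2B, CDKN2D, KRT8, KRT18, EPCAM, CDH1, SKP2, FBXW7, E2F1 and MAX were named for their role, after their values were seen. Libraries of a group differed by more than sampling noise (chi-square per gene 30.7 for controls and 21.5 for knockdown, at a mean count of at least 100).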

Additional observations from a re-analysis of the deposited data

How the results depend on the processing

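None of the 10 genes reached an adjusted p under 0.05 in any of the 16 other settings, where their lowest was 0.445. Over all genes limma called 2, edgeR 10, DESeq2 67 and limma-voom 2. Same-numbered libraries did not deviate together (correlation -0.12 across genes with a mean of at least 100), and the labels give no pairing. With the replicate number as a block limma called 7 genes and 0 of the 10. With crossed numbers, chosen after seeing the data, it called 240 genes, 1 of the MYC targets and 0 of the 10. Without any 1 library limma called 0 genes, the number of the 10 whose groups did not overlap was 5 to 10, against 60.5 to 72.3% of all genes, and their median log2 difference was -0.0091 to 0.24. Without any 1 library the log2 difference ranged from -0.54 to 0.47 for CCND1, -0.011 to 0.35 for CCND3, -0.13 to 0.019 for CDK4, -0.14 to 0.34 for CDK6, -0.23 to 0.071 for CDKN2A and -0.54 to 0.10 for MYC, and it kept its sign for CCNE1 (0.23 to 0.57), CCNE2 (0.06 to 0.54), RB1 (0.12 to 0.69) and CDKN1B (-0.63 to -0.23). With trends with transcript length and GC content removed the sign turned for CDK4 (0.060), CDK6 (-0.22) and CDKN2A (0.15), the difference was 0.31 for CCND3, -0.11 for MYC and -0.07 for CCND1, and the median of the 10 was 0.11. The cause was not tested. Without length scaling CCNE1 made up 53.8% of the E-type cyclin reads and CDK4 82.5% of the CDK4 and CDK6 reads, since the second gene of each pair is longer. With 2 libraries a group, the lowest bound of the 10 genes' 95% intervals was -0.89 on the log2 scale, for CDKN1B, and the highest was 0.88, for RB1, and a change inside a gene's interval is compatible with these libraries.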
